A study of Mus musculus with 8 samples.

Results

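The granzymes are serine proteases and perforin is a pore-forming protein, and both are stored in the cytotoxic granules of natural killer (NK) cells and CD8 T cells. The 9 genes described here are *Gzma*, *Gzmb*, *Gzmc*, *Gzmd*, *Gzme*, *Gzmf*, *Gzmg*, *Gzmk* and *Prf1* (perforin). They were taken by name, as granzymes and perforin, with no threshold on a measured value, from the 24787 genes counted in single cells of MC38 tumors, which grow from a mouse colon carcinoma line. Tumors were dissociated 24 hours after administration of saline (3 tumors), of free R848 (3 tumors) or of medium R848-BPDs (2 tumors). R848 is a small-molecule agonist of TLR7/8, and medium R848-BPDs are bottlebrush prodrugs that carry R848 on a polymer and release it through a linker with an intermediate rate. All mice were female C57BL/6J hosts of about 8 weeks of age bearing the same line, with no gene altered, and each library came from the tumor of 1 mouse. CD45+ cells were enriched before Seq-Well profiling, so the mix of cells in a library does not give the mix in the tumor.

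In granule exocytosis the killer cell docks on a target, its granules fuse with the membrane at the contact, perforin opens the membrane of the target, and granzymes enter and cleave proteins that lead to cell death. Granzyme B is an aspartate-cutting protease that activates caspases, whereas granzyme A is a tryptase that acts on other substrates. Granzymes C to G are found in rodents, lie next to *Gzmb* and are abundant in activated mouse NK cells and lymphocytes. TLR7 is expressed by myeloid cells, and the cytokines these cells release upon TLR stimulation, among them IL-12 and type I interferon, are known activators of NK cells.

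Of the 9 genes, 6 lay within 144.6 kb on the minus strand of chromosome 14 (GRCm38, GENCODE annotation), in the order *Gzme* (chr14:56117626-56120625), *Gzmd* (chr14:56129556-56132608), *Gzmg* (chr14:56156582-56159579), *Gzmf* (chr14:56205263-56211417), *Gzmc* (chr14:56231441-56234656) and *Gzmb* (chr14:56258838-56262260). *Gzma* (chr13:113093825-113100981) and *Gzmk* (chr13:113171608-113225908) shared 132.1 kb of the minus strand of chromosome 13, and *Prf1* (chr10:61297833-61304680) lay on the plus strand of chromosome 10. All 9 were annotated as protein coding. The 200 bases upstream of the annotated RefSeq start are shown for *Gzmb* and for *Gzmc*, *Gzme* and *Gzmg*, each written 5′ to 3′ on the strand of the gene. Their GRCm38.p6 positions are chr14:56262335-56262534, chr14:56234658-56234857, chr14:56120626-56120825 and chr14:56159580-56159779. The choice follows the calls below, which include *Gzmb* and none of its neighbours. The part of these sequences in the calls was not tested. All 4 windows overlapped no annotated transcript. Capitals mark matches to RUNX letters (TGTGGT or ACCACA), AP-1 letters (TGANTCA) and a cyclic AMP response element (CRE, TGACGTCA).
Gzmb: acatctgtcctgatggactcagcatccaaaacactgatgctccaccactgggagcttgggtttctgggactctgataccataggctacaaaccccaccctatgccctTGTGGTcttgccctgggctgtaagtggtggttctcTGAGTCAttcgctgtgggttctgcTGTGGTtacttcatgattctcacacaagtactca
Gzmc: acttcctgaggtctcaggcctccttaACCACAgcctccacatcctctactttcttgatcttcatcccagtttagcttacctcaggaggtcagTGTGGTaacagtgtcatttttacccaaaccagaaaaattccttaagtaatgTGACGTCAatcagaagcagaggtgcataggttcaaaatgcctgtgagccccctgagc
Gzme: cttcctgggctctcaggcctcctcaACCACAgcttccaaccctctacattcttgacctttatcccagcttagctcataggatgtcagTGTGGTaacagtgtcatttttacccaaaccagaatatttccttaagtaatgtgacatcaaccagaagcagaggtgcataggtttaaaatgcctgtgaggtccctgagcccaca
Gzmg: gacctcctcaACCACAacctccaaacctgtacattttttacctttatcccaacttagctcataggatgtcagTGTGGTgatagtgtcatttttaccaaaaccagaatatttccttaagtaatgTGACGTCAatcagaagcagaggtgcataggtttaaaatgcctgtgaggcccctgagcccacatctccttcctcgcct

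RUNX letters were found in the windows of 8 of the 9 genes, all but *Gzmk*, whereas 11.2% of 32851 RefSeq promoters of the same length held them. Those of *Gzmc*, *Gzmd*, *Gzme*, *Gzmf* and *Gzmg* were 77 to 94.5% identical to one another, so these 5 are not separate instances. The *Gzmk* window (chr13:113180966-113181165), set by the RefSeq start, lies inside the longer gene span given above and not upstream of it, and those of *Gzmd*, *Gzmf* and *Prf1* overlap the ends of their spans by a few bases. The *Gzmb* window begins at chr14:56262335, whereas the span given above ends at chr14:56262260, so the 2 do not adjoin. Positions below count from the RefSeq start. AP-1 letters were found only in *Gzmb* (5.48% of promoters) and the CRE in *Gzmc*, *Gzmf* and *Gzmg* (1.47%). Letters for STAT (TTCNNNGAA, 5.49% of promoters), T-box (AGGTGTGA, 0.907%) and NF-kB factors (3.39%) matched none of the 9 windows on either strand, and no 2 of the marked matches overlapped. In *Gzmb* the AP-1 letters started at position -58 and the RUNX letters at -93 and -34, in *Gzmc* the CRE started at -57, and in *Gzmg* at -77. The upstream windows of *Gzmd* and *Gzme* were 94.5% identical, and that of *Gzmb* was 56.5 to 60.5% identical to those of its 5 neighbours. The last 400 bases of the transcripts, the end that Seq-Well captures, were 84.8 to 91.2% identical among *Gzmd*, *Gzme*, *Gzmf* and *Gzmg*. Between 9.12% and 17.9% of their 50-base windows occurred word for word in another member, against 0 for the other 5 genes, so reads could have been split among these 4 paralogs, and values for *Gzmd* to *Gzmg* are uncertain one by one and are also given as a sum.

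Libraries held 5867590 to 12422614 unique molecular identifiers (UMIs, one per captured transcript molecule) and 892 to 1443 cells after filtering, with medians of 3247 to 6928 UMIs per cell. Of 9886 cells kept, 59 (0.597%) carried 1 of 23 barcodes found in more than 1 library, and 67 (0.678%) were marked as doublets; both were kept. Clustering, which used none of the 9 genes, gave 1022 NK-like, 223 CD8 T-like, 232 other T-like, 5340 monocyte/macrophage-like, 691 dendritic cell (DC)-like and 1888 MC38-like cells. The names rest on marker genes fixed for each cell type and on a score threshold set after the clusters were seen, and the defining markers were present: in NK-like cells *Ncr1* was at 134 to 328 CPM (UMIs of a gene in the summed cells, scaled to the same total for every sum), against 0 to 19.2 in CD8 T-like cells, and *Cd3d* was at 0 to 29.7 against 333 to 799. In 66 NK-like cells T cell markers equalled or exceeded NK markers, and 8 CD8 T-like cells had more NK than T markers. An NK-like library held 45 to 213 cells and a CD8 T-like library 8 to 58.

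NK-like cells carried most of the RNA of all members but *Gzmk*. Of all UMIs of a gene in the kept cells, NK-like cells held 17.0% for *Gzmk* and, for the other 8, from 79.6% (*Gzmb*) to 93.9% (*Gzmd*), with 87.2% for *Prf1* and 89.2% for *Gzma*. Counts of UMIs from transcript ends do not scale with transcript length, so CPM values may be set side by side between genes, except one by one for *Gzmd* to *Gzmg*, among which reads could have been split. In NK-like cells *Gzmc* was the highest, with a median of 13969.9 CPM over the 8 tumors (11444 to 15407), followed by *Gzmb* at 6343 (4738 to 14624), *Gzmd* at 4605 (4016 to 7793) and *Gzma* at 3734 (1248 to 10303). *Gzmg* (median 2521), *Prf1* (1996), *Gzme* (1659) and *Gzmf* (1588) followed and the ranges of all neighbours in this order overlapped. Summed, *Gzmd* to *Gzmg* had a median of 11093 CPM (8160.0 to 17191) in NK-like cells, which overlapped *Gzmc*, and of 187 CPM (0 to 4407) in CD8 T-like cells. The 9 genes together made up 3.01 to 5.90% of all UMIs of the NK-like cells of a tumor.

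**Figure D1:**
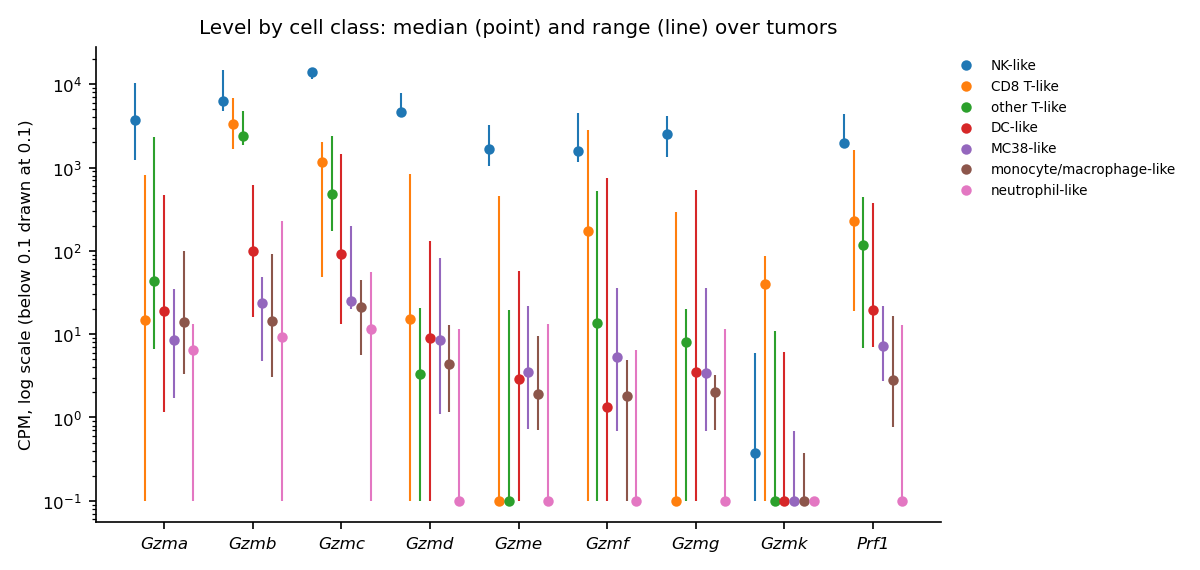
Level of each gene (CPM of summed UMIs, log scale, values below 0.1 drawn at 0.1) in NK-like, T-like, myeloid and MC38-like cells, with the median over tumors as a point and the range as a line. NK-like cells have the highest median for all genes except *Gzmk*, and the NK-like and CD8 T-like ranges overlap for *Gzmb* (4738 to 14624 and 1662 to 6768) and for *Gzmf* (1155 to 4516 and 0 to 2822), as do those of NK-like and other T-like cells for *Gzma* (1248 to 10303 and up to 2341).

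*Gzmb* was also high in T-like cells. It was at a median of 3340.4 CPM (1662 to 6768) in CD8 T-like cells, where 7 tumors had the minimum of 10 cells, and 2381 CPM (1885 to 4775) in other T-like cells, 2 ranges that overlapped each other and the NK-like range. It was at 99.2 CPM (16.1 to 617) in DC-like, 23.4 (4.79 to 48.8) in MC38-like and 14.5 (3.03 to 91.0) in monocyte/macrophage-like cells, and these 3 ranges overlapped one another. *Gzmc* was at 1182 CPM (47.9 to 2006) in CD8 T-like and 488 (174 to 2424) in other T-like cells, and *Prf1* at 225 (19.2 to 1624) and 118 (6.75 to 447), with the 2 T-like ranges overlapping in each case and both lying below the NK-like range. *Gzma* in CD8 T-like cells had a median of only 14.97 CPM but reached 819, and in other T-like cells 43.6 CPM but reached 2341. *Gzmk*, a tryptase gene known from memory-like CD8 T cells, was rare, at 112 UMIs in all. CD8 T-like cells held 54.5% of these at a median of 39.7 CPM (0 to 86.3), and NK-like cells held 17.0% at a median of 0.378 CPM (0 to 5.98), with ranges that overlapped. A cluster of 171 cells left unnamed held intermediate levels, with a median of 2663 CPM for *Gzmb* and 773 CPM for *Prf1*.

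In NK-like cells medium R848-BPDs were accompanied by higher *Gzmb*, *Gzma* and *Prf1*, whereas the granzymes C to G were not called in either direction. *Prf1* was at 1804, 1753 and 1857 CPM after saline (replicates 1 to 3), at 2537, 2136 and 1828 CPM after free R848 and at 4375 and 3177 CPM after medium R848-BPDs. Both prodrug tumors lay above all others, and the free R848 and saline tumors overlapped. *Gzma* was at 1248, 3247 and 2900.2 CPM after saline, at 4407, 3416 and 4052 CPM after free R848 and at 10303 and 5804 CPM after medium R848-BPDs, so that the 3 groups did not overlap. *Gzmb* was at 4738, 5736 and 4775 CPM after saline, at 6643, 6484 and 6202 CPM after free R848 and at 14624 and 10624 CPM after medium R848-BPDs, again with no overlap between any 2 groups. How many of all genes had groups that lay apart in this way was not counted, here or below. A CPM of summed counts does not separate more cells with the transcript from more transcript per cell, and shares of cells are given below.

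**Figure D2:**
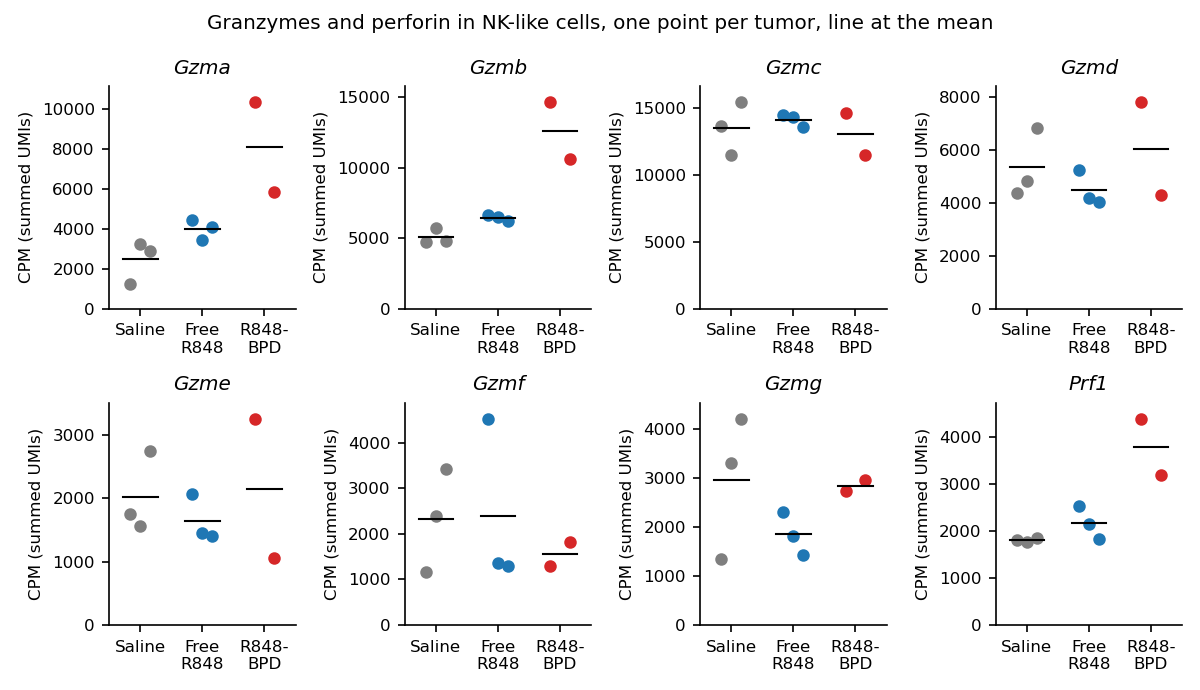
CPM of summed UMIs in NK-like cells for 8 of the genes, 1 point per tumor with a line at the group mean, for saline (*n* = 3), free R848 (*n* = 3) and medium R848-BPDs (*n* = 2). Both prodrug tumors lie above the others for *Gzma*, *Gzmb* and *Prf1*, while all groups overlap for *Gzmc*, *Gzmd*, *Gzme* and *Gzmf*, and for *Gzmg* the prodrug tumors lie above the free R848 tumors and within the saline range.

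Against saline, edgeR's quasi-likelihood test called 3 of the 8 genes that passed the filter on low counts, all higher after medium R848-BPDs, against 0.833% of all 8522 genes tested. *Gzmb* rose by 1.301 on the log2 scale (SE 0.16, 2.46-fold, adjusted p = 0.000243, 95% interval 0.97 to 1.63), from 5083 ± 566 CPM (SD, *n* = 3) to 12624 ± 2828 CPM (SD, *n* = 2). *Gzma* rose by 1.70 (SE 0.29, 3.24-fold, adjusted p = 0.00578), from 2465 ± 1068 to 8054 ± 3182 CPM, and *Prf1* rose by 1.06 (SE 0.16, 2.08-fold, adjusted p = 0.00237), from 1805 ± 51.9 to 3776 ± 847 CPM. The median log2 fold change over the 8 genes was 0.14 and over all genes -0.01. Medium R848-BPD replicate 1 held 209 of the 254 NK-like cells of its group. Without it, with the spread taken from the other groups because 1 prodrug tumor remained, the change in *Gzma* was 1.22 (adjusted p = 0.125, range over 19 alternatives 2.03e-21 to 0.438) and that in *Prf1* 0.80 (adjusted p = 0.0847, range 8.85e-08 to 0.671), both below the threshold for a call, whereas *Gzmb* stayed called. Choosing NK cells by a marker gate on single cells in place of clusters ended all 3 calls, with changes of 1.13 (*Gzma*), 0.74 (*Gzmb*) and 0.48 (*Prf1*). That gate also took 119 cells of MC38-like clusters and 61 DC-like, 14 other T-like, 13 unnamed and 8 CD8 T-like cells. With the MC38-like clusters alone left out, as added after the data were seen, the changes were 1.65, 1.34 and 1.07 and all 3 were called.

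Against free R848, edgeR called 1 of the 8 genes, *Gzmb*, against 0.188% of all genes. It rose by 0.96 (SE 0.16, 1.95-fold, adjusted p = 0.0113) from 6443 ± 224 CPM (SD, *n* = 3). *Prf1* differed by 0.80 (SE 0.16, adjusted p = 0.0548) and *Gzma* by 1.02 (SE 0.29, adjusted p = 0.233), and neither passed. DESeq2 called 2 of the 8 genes, beside 24 of all 8522. The *Gzmb* call was lost without medium R848-BPD replicate 1 (0.70, adjusted p = 0.133), without free R848 replicate 2 (0.97, adjusted p = 0.0837) and without free R848 replicate 3 (0.95, adjusted p = 0.0715), within a range of 1.69e-06 to 0.999 over 19 alternatives, of which 15 kept the call, and under the marker gate it was 0.90 and not called. The median change over the 8 genes was 0.52 and over all genes -0.01. Both prodrug comparisons share the 2 prodrug tumors.

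Between free R848 and saline, edgeR called 0 of the 8 genes and 0% of all genes. At an unadjusted p under 0.05 it counted 3 of the 8 genes and 407 of 8522 genes, and DESeq2 called 0 of the 8. The 3 were *Gzma* with a difference of 0.68 (SE 0.26), *Gzmb* with 0.34 (SE 0.14) and *Gzmg* with -0.67 (SE 0.27), each with an adjusted p of 1.00. *Prf1* differed by 0.26 (95% interval -0.05 to 0.57). The median change over the 8 genes was 0.05, and over all genes 0.00.

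**Figure D3:**
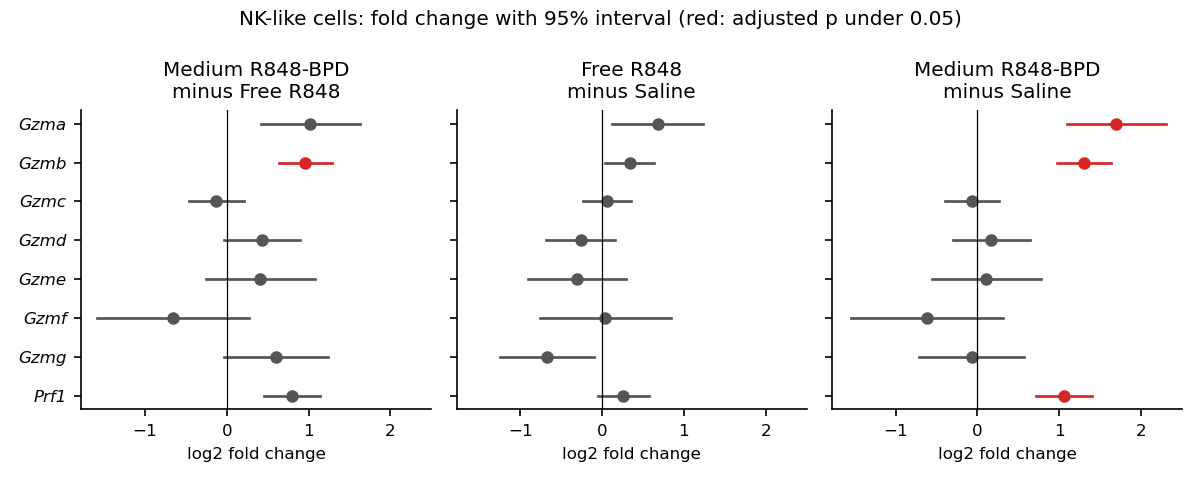
Log2 fold change with its 95% interval for 8 of the genes in NK-like cells, in 3 panels for the 3 comparisons of treatments, with genes called at an adjusted p under 0.05 in red. *Gzma*, *Gzmb* and *Prf1* are red in medium R848-BPD minus saline, *Gzmb* alone in medium R848-BPD minus free R848, and no gene in free R848 minus saline.

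None of the 5 neighbours of *Gzmb* on chromosome 14 was called in any of the 3 comparisons, and whether their changes differed from that of *Gzmb* was not tested. *Gzmc* was at 13630.1, 11513 and 15407 CPM after saline, 14473, 14309.7 and 13601 CPM after free R848 and 14607 and 11444 CPM after medium R848-BPDs, and all groups overlapped. Its change from saline to medium R848-BPDs was -0.07, with an interval of -0.40 to 0.27 that leaves out a rise of the size seen for *Gzmb*. *Gzmd* was at 4387, 4824 and 6819 CPM after saline, 5230.0, 4173 and 4016 CPM after free R848 and 7793 and 4295 CPM after medium R848-BPDs. *Gzme*, at 1055 to 3251 CPM, overlapped between all groups. *Gzmg* was at 1348, 3297 and 4199.8 CPM after saline, 2310.1, 1822 and 1435 CPM after free R848 and 2731 and 2954 CPM after medium R848-BPDs. Both prodrug tumors lay above all 3 free R848 tumors (change 0.60, adjusted p = 0.601) and within the saline range. *Gzmf* ranged from 1155 to 4516 CPM and varied most within a group, with 4516, 1366 and 1304 CPM in the 3 free R848 tumors. Summed over the 4 paralogs *Gzmd* to *Gzmg*, the change from saline to medium R848-BPDs was -0.02 (SE 0.26, interval -0.56 to 0.52), that from free R848 to medium R848-BPDs 0.27 (SE 0.25), and that from saline to free R848 -0.29 (SE 0.23), none of them called. *Gzmk* did not pass the filter in NK-like cells, with 1, 0 and 0 UMIs after saline, 5, 2 and 0 after free R848, and 11 and 0 in the prodrug tumors.

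Shares of cells with a transcript rise with its level per cell, so they do not separate more cells from more transcript per cell. They were taken after each cell was thinned to 1000 UMIs, which left out 12 NK-like cells, all after saline. *Gzma* was then seen in 43.5, 64.0 and 47.5% of NK-like cells after saline, in 64.4, 64.8 and 56.5% after free R848 and in 82.3 and 82.2% after medium R848-BPDs. Without thinning the values were 63.5, 73.3 and 56.8%, 78.9, 80.8 and 72.5%, and 87.1 and 86.7%. Both prodrug tumors were highest at either depth. *Gzmb*, in 83.7 to 90% of thinned cells after saline and 85.5 to 86.7% after free R848, was in 96.7 and 95.6% after medium R848-BPDs. *Prf1* was in 72.9, 61.0 and 69.3%, in 82.2, 72.0 and 63.8%, and in 87.6 and 86.7% of cells in the same order. Without thinning *Gzmb* was in 90.6 to 100% of cells after saline, 94.2 to 98.9% after free R848 and 97.6 and 95.6% in the prodrug tumors, and *Prf1* in 84.5 to 97.6%, 89.9 to 96.7% and 97.6 and 95.6%, so that groups overlapped at full depth for both. In monocyte/macrophage-like cells of similar depth (medians of 3158 to 6571 UMIs per cell, against 2991 to 7819.5 for NK-like cells) thinned shares were 0.304 to 1.75% for *Gzma*, 0.456 to 1.86% for *Gzmb* and 0.205 to 0.584% for *Prf1*. In 27 two-sided exact permutation tests over tumors, 6 reached the smallest p these group sizes allow, 0.1, and the lowest adjusted p was 0.45, so that differences in shares could not pass in this design.

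Within single NK-like cells thinned to 1000 UMIs, a median of 4, 4 and 5 of the 9 genes were seen after saline, 4, 4 and 4 after free R848, and 6 and 5 after medium R848-BPDs. Without thinning, *Gzmb* and *Prf1* were spread broadly over cells. The 10% of cells with the highest counts held 24.2 to 39.7% of *Gzmb* and 30.2 to 39.1% of *Prf1* UMIs in a tumor. The highest 10% of cells, also without thinning, held 41.4 to 67.5% of *Gzmd*, 41.8 to 68.2% of *Gzme*, 64.5 to 93.7% of *Gzmf* and 64.9 to 96.8% of *Gzmg* UMIs. Differences in depth between cells are therefore part of these percentages. Over the thinned cells of a tumor *Gzmd* and *Gzme* went together most closely, with a median Spearman correlation of 0.78 over 8 tumors (0.62 to 0.82), followed by *Gzmd* and *Gzmg* (0.64). These paralogs share sequence, and reads assigned to the wrong copy would also raise such values. *Gzmb* and *Prf1* reached 0.35, *Gzma* and *Gzmb* 0.20, and *Gzma* and *Gzmc* -0.06. All are descriptions of cells that share a library, at a depth where a single count decides many ranks.

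NK-like cells fell into a cluster of 665 cells and one of 357 cells that differed in *Gzmf* and *Gzmg*, although no granzyme was used for clustering. *Gzmg* was at 1792 to 6958 CPM per tumor in the first and 105 to 1289 CPM in the second, and *Gzmf* at 1284 to 6236 CPM and 82.7 to 1242 CPM, with no overlap in either. *Gzmd* (4584 to 8876 against 1204 to 5956 CPM) and *Gzme* (1379 to 3587 against 475 to 2682 CPM) overlapped between the clusters. Within each of the 8 tumors *Gzmd* was higher in the first, and *Gzme* was too except in saline replicate 1 (1657 against 1825 CPM). In the first, *Gzmb* was at 5238, 7180.5 and 5189 CPM after saline, 7446, 6504 and 5729 CPM after free R848 and 16519 and 14073 CPM after medium R848-BPDs. In the second it was at 4382, 4580.3 and 3960.1 CPM, 4999, 6460.0 and 6846 CPM, and 11407 and 6587 CPM, so that medium R848-BPD replicate 2, with 17 cells there, fell within the free R848 range. *Gzma* kept the prodrug tumors on top in both, at 11282 and 5875 CPM against at most 4335 CPM in the first, and at 8642 and 5720.0 CPM against at most 4554 CPM in the second. *Prf1* did so in the first, at 5261 and 4519.6 CPM against at most 2899 CPM, whereas in the second medium R848-BPD replicate 2, at 1606 CPM, lay within the free R848 (1475 to 1797 CPM) and saline (894 to 1652 CPM) ranges. Treatments were not tested within these clusters.

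In the NK-like sums the summed level of 9 NK markers was 2125 to 2470.3 CPM after saline, 2469.8 to 2700.4 CPM after free R848 and 2080.3 to 2408 CPM after medium R848-BPDs, and that of 9 T cell markers 420.4 to 587, 415 to 638 and 517 to 534 CPM. For the NK markers both prodrug tumors lay below all 3 free R848 tumors and overlapped the saline tumors. That of 8 macrophage markers was 64.4 to 1541, 127 to 532 and 54.6 to 261 CPM. The part of these in the granzyme values was not tested.

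Of 48 listed genes that act with granzymes and perforin, 47 were found and 43 were tested in NK-like cells. From saline to medium R848-BPDs 3 of the 43 rose and 0 fell, against 0.833% of all genes called, with a median change of 0.08. *Il12rb1*, a chain of the receptor for IL-12 and IL-23, rose by 1.35 (SE 0.18, adjusted p = 0.000732) from 75.6, 84.7 and 71.9 CPM to 181 and 231 CPM, with 132, 117 and 119 CPM after free R848, and the 3 groups did not overlap. *Serpinb6b*, a serpin of the family that inhibits granule proteases, rose by 0.83 (SE 0.16, adjusted p = 0.0140) from 453, 465 and 492 CPM to 764 and 937 CPM. *Id2*, a transcriptional regulator needed for NK cell development, rose by 0.81 (SE 0.16, adjusted p = 0.0147) from 335, 291 and 332 CPM to 533 and 614 CPM. The *Serpinb6b* call was lost without saline replicate 1 or medium R848-BPD replicate 2, and that of *Id2* without either prodrug tumor. Under the marker gate on single cells that also took MC38-like cells, all 3 calls were lost, with changes of 0.77 for *Il12rb1*, 0.09 for *Serpinb6b* and 0.10 for *Id2*.

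By group, 0 of 6 genes of granule content, 0 of 12 exocytosis genes, 1 of 4 inhibitor genes, 0 of 4 genes for death ligands and cytokines and 2 of 17 regulators and receptors were called in that comparison, beside the same 0.833% of all genes. *Nkg7*, which encodes a granule membrane protein needed for exocytosis, differed by 0.59 (SE 0.15, adjusted p = 0.0842) and was called by DESeq2. *Ifng*, the main cytokine that NK cells release, was at 40.1, 31.6 and 181 CPM after saline, 38.0, 50.9 and 42.3 CPM after free R848 and 43.0 and 101 CPM after medium R848-BPDs, with a change of -0.53 (interval -1.71 to 0.64). *Gzmm* and *Gzmn*, the other granzymes listed, did not pass the filter in NK-like cells, at no more than 13.6 CPM. Between medium R848-BPDs and free R848, edgeR called 0 of the 43 (8 at an unadjusted p under 0.05 beside 726 of all 8522 genes, 1 by DESeq2 beside 24), and between free R848 and saline 0 (6 beside 407, and 0 beside 0). In CD8 T-like cells edgeR and DESeq2 called 0 of 41 in any comparison. For medium R848-BPDs against free R848, free R848 against saline and medium R848-BPDs against saline, edgeR called 0.0622%, 0% and 0.0415% of all 4821 genes. At an unadjusted p under 0.05 there were 2, 3 and 2 of the 41 in that order, beside 217, 181 and 179 of all genes. In monocyte/macrophage-like cells, of 38 tested, 1 was lower after medium R848-BPDs than after free R848 and 4 were lower than after saline, beside 1.64% and 7.19% of all genes called, so that these shares were near the background. They were named after their values were seen. *Il21r*, a cytokine receptor gene, fell by 1.10 (adjusted p = 0.0364) and 1.34 (adjusted p = 0.00862), and against saline *Runx3* fell by 1.04, *Ctsc*, which encodes the protease that activates granzymes, by 0.86, and *Il2rg* by 0.86. These calls held in 9 (*Il2rg*) to 18 (*Il21r* against saline) of 19 alternatives.

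In CD8 T-like cells the members varied widely between tumors of a group. *Gzmb* was at 1662, 6768 and 1984 CPM after saline, 4691, 1917 and 3340.4 CPM after free R848 and 4862 CPM in medium R848-BPD replicate 1. *Prf1* was at 44.9, 1565 and 225 CPM, at 1624, 19.2 and 748 CPM, and at 172 CPM in the same order. *Gzmc* was at 165, 2006 and 962 CPM, at 1711, 47.9 and 1182 CPM, and at 1198 CPM. Saline replicate 2 was the highest for *Gzmb* and *Gzmc*, free R848 replicate 2 was the lowest for *Prf1* and *Gzmc*, and the single prodrug tumor lay within the saline range for all 3 genes and within the free R848 range for *Prf1* and *Gzmc*, being just above it for *Gzmb*. *Gzmf* (0 to 2822 CPM), *Gzmd* (0 to 829), *Gzme* (0 to 461) and *Gzmg* (0 to 294) were at 0 UMIs in at least 1 saline and 1 free R848 tumor, and *Gzmk* was at 0 to 86.3 CPM. A count of 0, taken to allow up to 3 UMIs, leaves room for 7.01 to 45.1 CPM in these libraries, counting error only. Medium R848-BPD replicate 2 had 8 CD8 T-like cells, under the minimum of 10, and was left out of the test, so the single prodrug tumor was taken to vary as the others do.

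edgeR called 0 of the 9 genes in CD8 T-like cells in each comparison, against 0.0622% of 4821 genes between medium R848-BPDs and free R848, 0.0415% between medium R848-BPDs and saline, and 0% between free R848 and saline. Counts at an unadjusted p under 0.05 were 2, 3 and 2 of the 9 in that order, beside 217, 179 and 181 of all 4821 genes, and DESeq2 called 0 of the 9 in each, beside 3, 1 and 0 of all genes. *Gzma* differed by 5.20 (interval 2.92 to 7.48, adjusted p = 0.127) from free R848 to medium R848-BPDs and by 1.49 (SE 0.88, adjusted p = 0.999) from saline, at 14.97, 675 and 0 CPM after saline, 4.67, 86.3 and 14.2 CPM after free R848 and 819 CPM in the prodrug tumor, and was not called. The change in *Gzmb* was 0.57 from free R848 to medium R848-BPDs (interval -0.61 to 1.75) and 0.45 from saline (interval -0.74 to 1.64), wide enough to hold both no change and the rise seen in NK-like cells. Median changes over the 9 genes were -2.26, -1.98 and -0.14 in that order, against -0.02, -0.04 and -0.01 over all genes. *Gzme* and *Gzmg* were at 0 UMIs in the prodrug tumor, and with both set at the bound that 3 UMIs allow the first 2 medians were -1.05 and -1.98. In 27 two-sided exact permutation tests of thinned shares the lowest adjusted p was 1.00.

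*Gzma* was not called in CD8 T-like cells, and its values in all T-like cells are given here. In all 455 T-like cells together, an alternative to the CD8 gate added after the data were seen, it was at 9.22, 579 and 19.1 CPM after saline, at 9.54, 67.3 and 12.03 CPM after free R848 and at 1360.2 and 3474 CPM after medium R848-BPDs, with both prodrug tumors above all others. edgeR called it higher after medium R848-BPDs than after free R848, by 6.52 on the log2 scale (SE 1.03, adjusted p = 0.0152), as 1 of 8 genes called (0.143% of 5584). The call was lost without free R848 replicate 1 (adjusted p = 0.0627), free R848 replicate 3 (0.122) or the second prodrug tumor (0.0661), with a range of 3.71e-110 to 0.122 over the alternatives. Against saline the difference was 3.45 (SE 0.84, adjusted p = 0.297, 0.0537% of genes called), and without saline replicate 2 it was 7.43 (adjusted p = 0.000197, range over 10 alternatives 3.03e-45 to 1.00). Between free R848 and saline it was -3.07 (SE 1.06) with an adjusted p of 0.995, and edgeR called 0% of genes. Of the saline tumors only replicate 2, at 579 CPM, lay above every free R848 tumor, and it weighs on both comparisons with saline. In the same cells *Gzmb* did not differ in this way, at 1816, 5152 and 2027 CPM, at 4268, 2313 and 2952 CPM, and at 4814 and 1498 CPM, with a change of 0.00 from free R848 to medium R848-BPDs (interval -0.93 to 0.93).

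**Figure D4:**
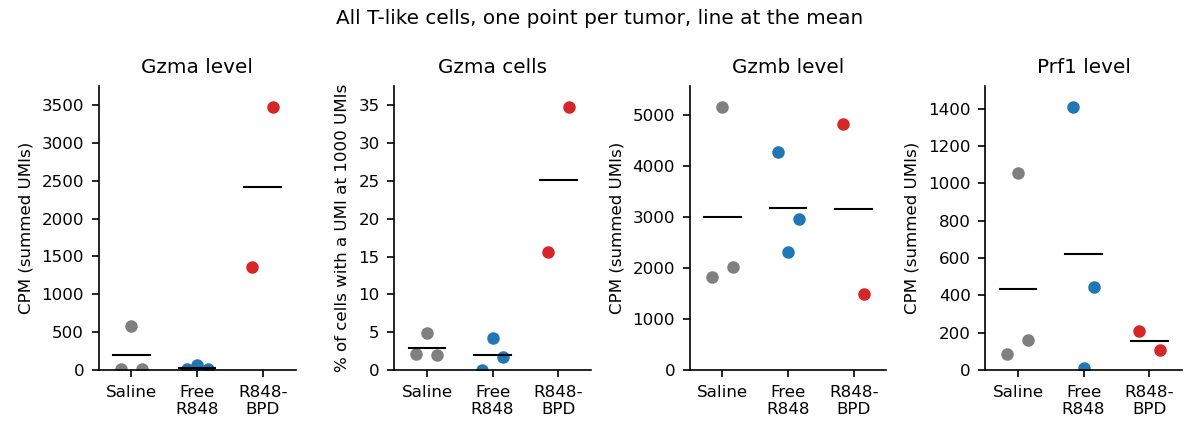
Values in all T-like cells, 1 point per tumor with a line at the group mean: *Gzma* CPM, the percentage of cells with a *Gzma* UMI at 1000 UMIs per cell, *Gzmb* CPM and *Prf1* CPM. *Gzma* is highest in both medium R848-BPD tumors (1360.2 and 3474 CPM), and the groups overlap for *Gzmb* and *Prf1*.

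The *Gzma* UMIs were unevenly spread over T-like cells. At least 1 UMI was found in 33 of 110 and 15 of 23 cells of the prodrug tumors, and after thinning in 15.6 and 34.8% of cells, against 0 to 4.26% after free R848 and 1.92 to 4.88% after saline. At full depth the shares were 5.17 to 14.9% after free R848 and 3.77 to 12.2% after saline, and the free R848 tumor at 0 after thinning had 4 of 75 cells with a UMI. The 3 cells with the highest counts held 66.6 and 54.7% of the *Gzma* UMIs of the prodrug tumors, with up to 372 UMIs in a cell. Of the 13 and 8 cells with 10 or more *Gzma* UMIs there, 0 and 1 had more NK than T markers. In saline replicate 2, 2 of 3 such cells did. Both the CD8 T-like cells (819 CPM in medium R848-BPD replicate 1, and 5617 CPM in the 8 cells of replicate 2) and the other T-like cells (up to 2341 CPM) contributed. The 9 NK markers summed to 1132 and 1004 CPM in the T-like cells of the prodrug tumors, against 505 to 768 CPM after free R848 and 647 to 1007 CPM after saline, and the 9 T markers to 2862 and 2313 CPM, against 3157 to 4589 and 3301 to 4001 CPM. The part of these in the *Gzma* values was not tested.

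The responses of NK-like and T-like cells were then compared within tumors. Between NK-like and CD8 T-like cells, edgeR's class by treatment term was called for 0 of the 9 genes in each comparison (*Gzma* -3.89, SE 0.88, adjusted p = 0.116 for medium R848-BPDs and free R848), against 0.0578% of 8650 genes for medium R848-BPDs and free R848, 0.0694% for medium R848-BPDs and saline and 0% for free R848 and saline. At an unadjusted p under 0.05 there were 5, 4 and 1 of the 9 genes in that order, beside 365, 346 and 300 of all genes, and DESeq2 was not run on this term. With all T-like cells in place of CD8 T-like cells, *Gzma* was the only one of the 9 with a difference, of -5.42 (SE 0.86, adjusted p = 0.00752) between medium R848-BPDs and free R848, against 0.0846% of 8271 genes called, so that the change was larger in T-like than in NK-like cells on the log2 scale. The T-like values after free R848 rest on 5, 17 and 3 *Gzma* UMIs, and in CPM the difference between the groups was larger in NK-like cells. That call was lost when free R848 replicate 1 (-4.70, adjusted p = 0.0678) or the second prodrug tumor (-4.34, adjusted p = 0.129) was left out, within a range of 4.98e-06 to 0.129 over 8 alternatives. For medium R848-BPDs against saline 0.0605% of genes were called, and for free R848 against saline 0%, with no member in either (*Gzma* -2.25, adjusted p = 0.630, and 3.17, adjusted p = 1.00). Without saline replicate 2 the *Gzma* difference against saline was -5.27 and was called.

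Outside lymphoid cells granzyme and perforin UMIs were few. Relative to NK-like cells of the same tumor, the median level in monocyte/macrophage-like cells was 0.0679% (*Gzmg*) to 0.222% (*Gzma*) over the 8 genes other than *Gzmk*, and in MC38-like cells 0.144% (*Gzmg*) to 0.323% (*Gzmb*). In DC-like cells it was higher for some genes, at 0.0851% (*Gzmf*) to 1.64% (*Gzmb*). Summed over tumors, a cluster of 362 DC-like cells stood at 0.543% (*Gzme*) to 5.68% (*Gzmf*) of the NK-like level. *Gzma* in monocyte/macrophage-like cells was at 15.01, 27.8 and 3.34 CPM after saline, 12.8, 3.72 and 3.41 CPM after free R848 and 15.9 and 100.1 CPM after medium R848-BPDs, and *Gzmb* at 16.2, 21.9 and 3.34, at 14.1, 3.72 and 3.03, and at 14.97 and 91.0 CPM. For these 2 genes only medium R848-BPD replicate 2 stood above the rest, and the other members are not given by tumor here. In that tumor 5 of 515 cells held 715 of the 757 UMIs of the 9 genes (94.5%), and all 5 had an NK marker UMI. In medium R848-BPD replicate 1 they were spread over more cells, with a member UMI in 33.8% of monocyte/macrophage-like cells and 22.9% of the UMIs in the 5 highest, and free R848 replicate 2 had 0 cells with 10 or more. Over all tumors, 32 of 5340 monocyte/macrophage-like cells had 10 or more such UMIs and held 55.4% of them. An NK marker UMI was present in 25 of these 32 cells against 2.83% of the others, all 32 had a macrophage marker UMI, and 0 were marked as doublets.

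edgeR called 0 of 8 genes in monocyte/macrophage-like cells in each comparison, against 1.64% of 10579 genes between medium R848-BPDs and free R848, 7.19% between medium R848-BPDs and saline and 0.0189% between free R848 and saline. At an unadjusted p under 0.05 there were 6, 4 and 1 of the 8 in that order, beside 1488, 2611 and 1195 of all genes, and DESeq2 called 4, 0 and 0 of the 8, beside 380, 969 and 36 of all genes. Median changes over the 8 genes were 2.33, 1.43 and -1.01, against -0.01, -0.01 and 0.00 over all genes.

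**Figure D5:**
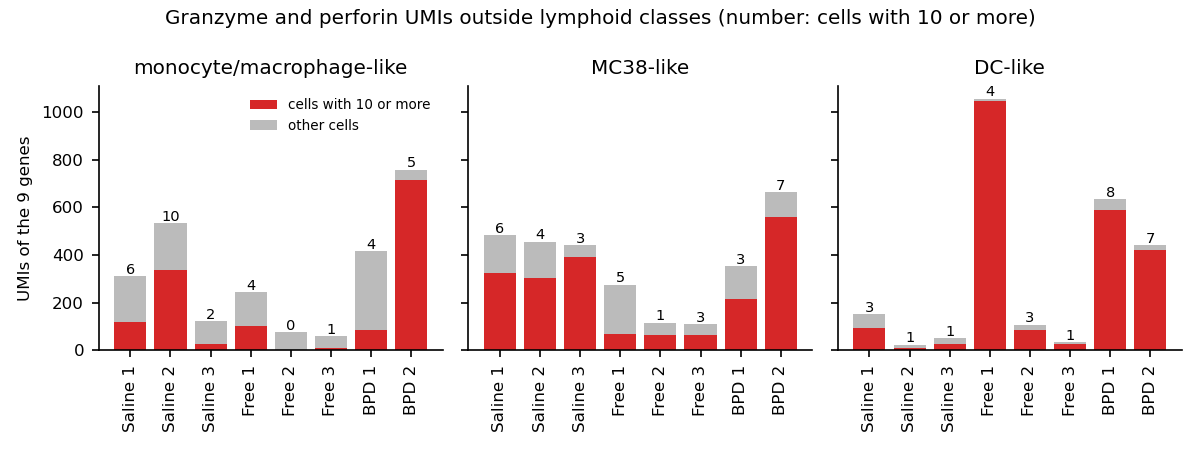
UMIs of the 9 genes per tumor in monocyte/macrophage-like, MC38-like and DC-like cells, split into cells with fewer than 10 such UMIs and cells with 10 or more, whose number is printed above each bar. In medium R848-BPD replicate 2, 5 monocyte/macrophage-like cells hold 715 of 757 UMIs.

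In MC38-like and DC-like cells a member UMI was present in 13.9 to 47.2% and 10.7 to 32.0% of the cells of a tumor. Of 1888 MC38-like cells, 32 held 68.8% of the UMIs of the 9 genes, 25 of them had an NK marker UMI against 29.6% of the others, and 6 were marked as doublets. Of 691 DC-like cells, 28 held 91.9%, 22 had an NK marker UMI against 28.7% of the others, and 2 were marked as doublets. The NK marker gate on single cells took 61 of the 691. *Gzmb* in DC-like cells was at 32.8, 109 and 30.01 CPM after saline, 248, 89.99 and 16.1 CPM after free R848 and 396 and 617 CPM after medium R848-BPDs, so that both prodrug tumors were highest. DC-like cells fell into a cluster of 362 and one of 329 cells, and different clusters held most of them by group. The prodrug tumors had 107 and 62 cells in the first, and replicate 1 had 15 in the second, whereas saline replicates 1 and 3 had 34 and 29 in the first and 133 and 76 in the second. Within the first cluster *Gzmb* was at 439 and 678 CPM in the prodrug tumors, at 250, 119 and 15.3 CPM after free R848 and at 15.8 and 66.8 CPM in saline replicates 1 and 3, so that the prodrug tumors were the highest there too. In the second it was at 14.3 to 235 CPM. The part of this shift between clusters in the class level was not tested. The treatments were not tested in DC-like cells, and 1 DC-like cell of free R848 replicate 1 held 430 *Gzmc* UMIs. The share of these UMIs that was made in the cells themselves was not tested.

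Genes whose levels ran most like those of 5 of the members were sought by Pearson correlation of log2 CPM over 63 sums of a cell type and a tumor, among 7179 genes, as a description that mostly reflects differences between cell types within shared libraries. *Gzmb* was followed most closely by *Nkg7*, *Sh2d2a* and *Sept1* (0.95 each), *Prf1* by *Gzmc* (0.93), *Klre1* (0.90) and *Tbx21* (0.90), and *Gzme* by its paralogs *Gzmd* (0.95), *Gzmg* (0.91) and *Gzmf* (0.86). *Gzma* had looser partners in *Klra3* (0.80), *Prf1* (0.79) and *Clnk* (0.79). *Gzmk*, close to its detection limit, had the loosest, *Rab11fip4* (0.66), *Fam71b* (0.65) and *Angel2* (0.62).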

How the data were processed

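Single cells of MC38 tumors from 8 mice were profiled with Seq-Well 24 hours after treatment. The authors deposited 1 table per tumor of raw UMI counts per gene and cell, made with bcl2fastq and aligned to mm10. The counting tool, annotation and strand setting are not given in the sources used here. Tumors were grouped as labelled into saline (3), free R848 (3) and medium R848-BPD (2), with 1 mouse per tumor.

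Of 10791 barcodes, 9886 had over 400 genes but under 10000, under 50000 UMIs in all and no more than 15% from mitochondrial genes, and were kept. Clustering used Seurat 5.3.0 (R 4.3.3) (30 components at resolution 0.8, then 11 components at resolution 1.3 for nonmalignant cells) and left out the 9 genes and the listed pathway genes. Clusters were named from fixed markers by a score whose threshold was set after the clusters were seen, of which 76 of 78 were found. Scrublet, run through scanpy in Python 3.11.15, marked 67 cells as doublets, which were kept and left out in an alternative. T-like cells with a *Cd8a* or *Cd8b1* UMI and no *Cd4* UMI were taken as CD8 T-like. Names are rebuilt from markers and may differ from those of the study. No threshold on a measured value chose the members, but the members and the gene lists were chosen with earlier results of these data known.

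Counts were summed per tumor and cell type with at least 10 cells and tested over all genes with edgeR 4.0.16 (quasi-likelihood F test, TMM, filterByExpr, treatment as the only term, Benjamini-Hochberg adjustment, called at an adjusted p under 0.05). The SE was derived from the log2 fold change and its F statistic, and intervals are at 95%. The class by treatment term was tested with tumor as a block. Summed CPM values are given as mean ± SD. Shares of cells were compared at 1000 UMIs per cell by two-sided exact permutation tests. Differences between cell types are descriptions with no test. On simulated counts for NK-like cells, where medium R848-BPD was set against free R848 over 8522 genes, the test recovered 48% of 100 genes changed by 1 and 84% of 100 changed by 2 on the log2 scale, with 9 false calls. For CD8 T-like cells over 4821 genes it recovered 4% and 58%, with 7 false calls. UMI intervals and limits cover counting error only.

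All 9 members were named. Of 48 listed pathway genes those called in NK-like or CD8 T-like cells were named, up to 5 per comparison, and for *Gzma*, *Gzmb*, *Gzme*, *Gzmk* and *Prf1* the 3 genes with the highest correlation over sums of cell types, among genes with a mean of at least 20 CPM in NK-like or CD8 T-like cells (prior count 2). *Nkg7*, *Ifng* and the 4 genes of monocyte/macrophage-like cells were named after their values were seen. The processing was varied with no filter on low counts, RLE size factors, DESeq2 1.42.0, fits of only the compared groups, a replicate block, a marker gate on single cells, another resolution, doublets or shared barcodes left out, summed paralogs, other depths and each tumor left out. Promoter sequences are from RefSeq (GRCm38.p6), matched by symbol for all 9 genes, and positions from GENCODE vM21.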

Additional observations from a re-analysis of the deposited data

Results flagged for a closer look

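*Gzma* in T-like cells was singled out because its response to treatment differed between NK-like and T-like cells by a test of the difference itself. From free R848 to medium R848-BPDs its log2 change was 5.42 smaller in NK-like than in all T-like cells (NK-like minus T-like -5.42, SE 0.86, edgeR adjusted p = 0.00752, range over 8 alternatives 4.98e-06 to 0.129). *Gzma* was higher in both prodrug tumors than in each of the 3 free R848 tumors in either cell type. T-like cells were at 1360.2 and 3474 CPM against 9.54 to 67.3 CPM, and NK-like cells at 10303 and 5804 CPM against 3416 to 4407 CPM. The use of all T-like cells was chosen after the data were seen, and with CD8 T-like cells alone the difference was -3.89 (SE 0.88, adjusted p = 0.116) and was not called. The call ended without free R848 replicate 1 (-4.70) and, separately, without the second prodrug tumor (-4.34). NK markers were also higher in the T-like cells of the prodrug tumors than in those of the free R848 tumors (1132 and 1004 CPM against 505 to 768 CPM), and their part in the difference was not tested.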

How the results depend on the processing

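The number of members called changed with the choice of NK-like cells, the filter on low counts and single tumors. In NK-like cells 1 was called for medium R848-BPDs against free R848, against 2 with DESeq2, with doublets left out or with the paralogs summed, 3 with only both groups compared, 4 without the filter, 0 under the marker gate and 0 to 3 with 1 tumor left out. Between medium R848-BPDs and saline in NK-like cells, 3 were called, against 0 under the gate and 1 to 3 with 1 tumor left out, 1 being without medium R848-BPD replicate 1. Between free R848 and saline, 0 became 2 (NK-like), 2 (CD8 T-like) and 3 (monocyte/macrophage-like) without the filter. In CD8 T-like cells 0 between medium R848-BPDs and free R848 became 6 without the filter, 2 with both groups alone, 1 under the gate with or without MC38-like clusters, 1 with all T-like cells and 0 to 2 with 1 tumor left out, and 0 against saline became 6 without the filter, 1 under either gate and 0 to 1. In monocyte/macrophage-like cells 0 became 4 with DESeq2, 6 without the filter, 2 with both groups alone and 0 to 2 with 1 tumor left out between medium R848-BPDs and free R848, and 4 without the filter and 0 to 1 against saline. For the class by treatment term, 0 became 5, 1 and 4 without the filter (medium R848-BPD against free R848, free R848 against saline, medium R848-BPD against saline), 1 under the gate or with all T-like cells in the first, and 0 to 5, 0 to 3 and 0 to 3 with 1 tumor left out. The cause was not tested. No direction of a called gene was reversed in these alternatives.

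Replicate numbers did not pair the tumors (correlations of deviations -0.30 to 0.21). With the replicate block the counts were 1, 0 and 3 in NK-like cells as before, 1 in place of 0 in CD8 T-like cells between medium R848-BPDs and free R848, and 0 in the other comparisons. Over all genes, calls in NK-like cells ranged from 1 to 111 (16 as reported), 0 to 29 (0) and 2 to 210 (71) for medium R848-BPD against free R848, free R848 against saline and medium R848-BPD against saline, in CD8 T-like cells from 1 to 70 (3), 0 to 7 (0) and 0 to 22 (2), in monocyte/macrophage-like cells from 66 to 940 (174), 1 to 539 (2) and 161 to 1763 (761), and for the class by treatment term from 4 to 38 (5), 0 to 5 (0) and 0 to 21 (6). With 1 tumor left out they ranged from 8 to 39, 0 to 2 and 37 to 76 in NK-like cells, 2 to 23, 0 to 3 and 2 to 5 in CD8 T-like cells, 14 to 585, 1 to 132 and 86 to 1240 in monocyte/macrophage-like cells, and 2 to 35, 0 to 21 and 4 to 12 for the term. The CD8 T-like sums tested held 15 to 58 cells per tumor, and on simulated counts for them 4% of changes of 1 on the log2 scale were recovered between medium R848-BPDs and free R848. No poor-quality cluster was found, so the alternative that keeps it gave no value.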
